A study of Mus musculus with 8 samples.

Results

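The neural stem cell identity genes described here are Nes, Sox2, Sox3, Pax6, Msi1, Prom1, Egfr and Cd24a, 8 of the 8252 genes that the array annotation names. Every probe set annotated to 1 of them was taken, whether bright or dim, which gave 15 of the 12488 probe sets on the array. Neurosphere cells, grown as floating clusters of neural stem and progenitor cells, were prepared from single forebrains of mouse embryos at embryonic day 14.5, and all groups carried a bcl2 transgene, a gene that protects cells from death. Treatment lasted 2 days, and the 4 groups received AzaC at 500 nM, TSA at 150 nM, both at these doses (AzaC/TSA), or nothing (untreated). AzaC is 5-Aza-2′-deoxycytidine, which blocks DNA methyltransferases, and TSA is trichostatin A, which blocks histone deacetylases. Each group had 1 array from each of 2 independent experiments, so every p-value below rests on 2 arrays per group or, where groups were pooled, on 4. The promoter that drives the transgene is not given in the sources used here.

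Neural stem and progenitor cells line the ventricles of the embryonic forebrain, divide, and give rise to neurons and later to glia. They are recognised by the intermediate filament protein nestin (Nes), by the transcription factors Sox2, Sox3 and Pax6, by the RNA-binding protein musashi (Msi1), and by the surface protein prominin (Prom1, also called CD133). The surface glycoprotein CD24 (Cd24a) is found on progenitors and on young neurons too. Epidermal growth factor receptor (Egfr) passes on the growth signal with which neurospheres are usually kept dividing. DNA methylation sits at CpG sites, where a C is followed by a G. AzaC lets it be lost as DNA is copied, and TSA lets acetyl groups build up on histones.

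The signals are intensities on a linear scale, and each array had been scaled to the same trimmed mean, 200.1. Values below a floor of 20 were raised to it before log2 was taken, and testing was limited to probe sets at 50 or more on 2 or more arrays. This left 12 of the 15 probe sets of the 8 genes, among 7987 on the whole array. The 3 untested ones were Nes 161829_at and Sox3 161276_i_at, which lay under the floor on all 8 arrays, and Sox3 92264_at, which reached 50 only on 1 AzaC array, at 71.9. Levels of different probe sets cannot be set against each other, so all comparisons are within a probe set. A change in the signal of a culture can mean fewer cells of a type or less RNA per cell, which these data cannot tell apart. Differences are log2 changes with their standard error (SE), tested with limma. Adjusted p-values are Benjamini-Hochberg values over all 7987 tested probe sets, and a call is an adjusted p under 0.05.

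Across the arrays, actin 5′ to 3′ ratios, a sign of RNA integrity, lay between 0.29 and 0.471. In experiment 1 they were 0.33 with TSA and 0.29 with AzaC/TSA, against 0.471 with AzaC and 0.427 in untreated cells. In experiment 2 they were 0.378, 0.39, 0.398 and 0.332 in the same order. The part of RNA integrity in the results below was not tested. The share of probe sets at 50 or more lay between 53.1% and 58.3%. Among the 8 genes, Nes 103549_at and Sox2 were at 1049 or more on all 8 arrays, and Nes 161829_at was under the floor on all 8. In untreated cells Prom1 93389_at was at 4.2 and 13.8, Prom1 93390_g_at at 11.7 and 3.2, and Msi1 at 10.3 and 45.7. Genes of dividing cells moved strongly with TSA: all 14 fell over the 4 arrays with TSA against the 4 without, with a median log2 change of -3.48, and their summed signal was 1157 to 1985 with TSA and 10431 to 16009 without. The part of this shift in the results below was not tested.

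No member probe set passed the threshold in any of the 9 contrasts, 8 of them fitted with group means alone and 1, between the experiments, fitted with the experiment as a term. In TSA against untreated, 0 of 12 were called where 5.02% of all probe sets were, and 3 had an unadjusted p under 0.05. In AzaC/TSA against untreated, 0 of 12 were called beside 3.12% of all probe sets, and 1 had an unadjusted p under 0.05. In AzaC against untreated, 0 of 12 and 0% of all probe sets were called, with 0 members and 175 probe sets at an unadjusted p under 0.05. These 3 contrasts share the untreated arrays. The sample titles pair the arrays by experiment. With the experiment as a block, 3 of 12 were called for TSA, beside 12.2% of all probe sets, and 1 of 12 for AzaC/TSA, beside 9.34%. Both counts include Prom1 93389_at, which passed the filter through treated arrays only and lay under the floor in untreated cells. Its calls cannot be taken as support for a rise. The genes behind the calls with the block, Egfr, Pax6 and Prom1, are described first.

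**Figure D1:**
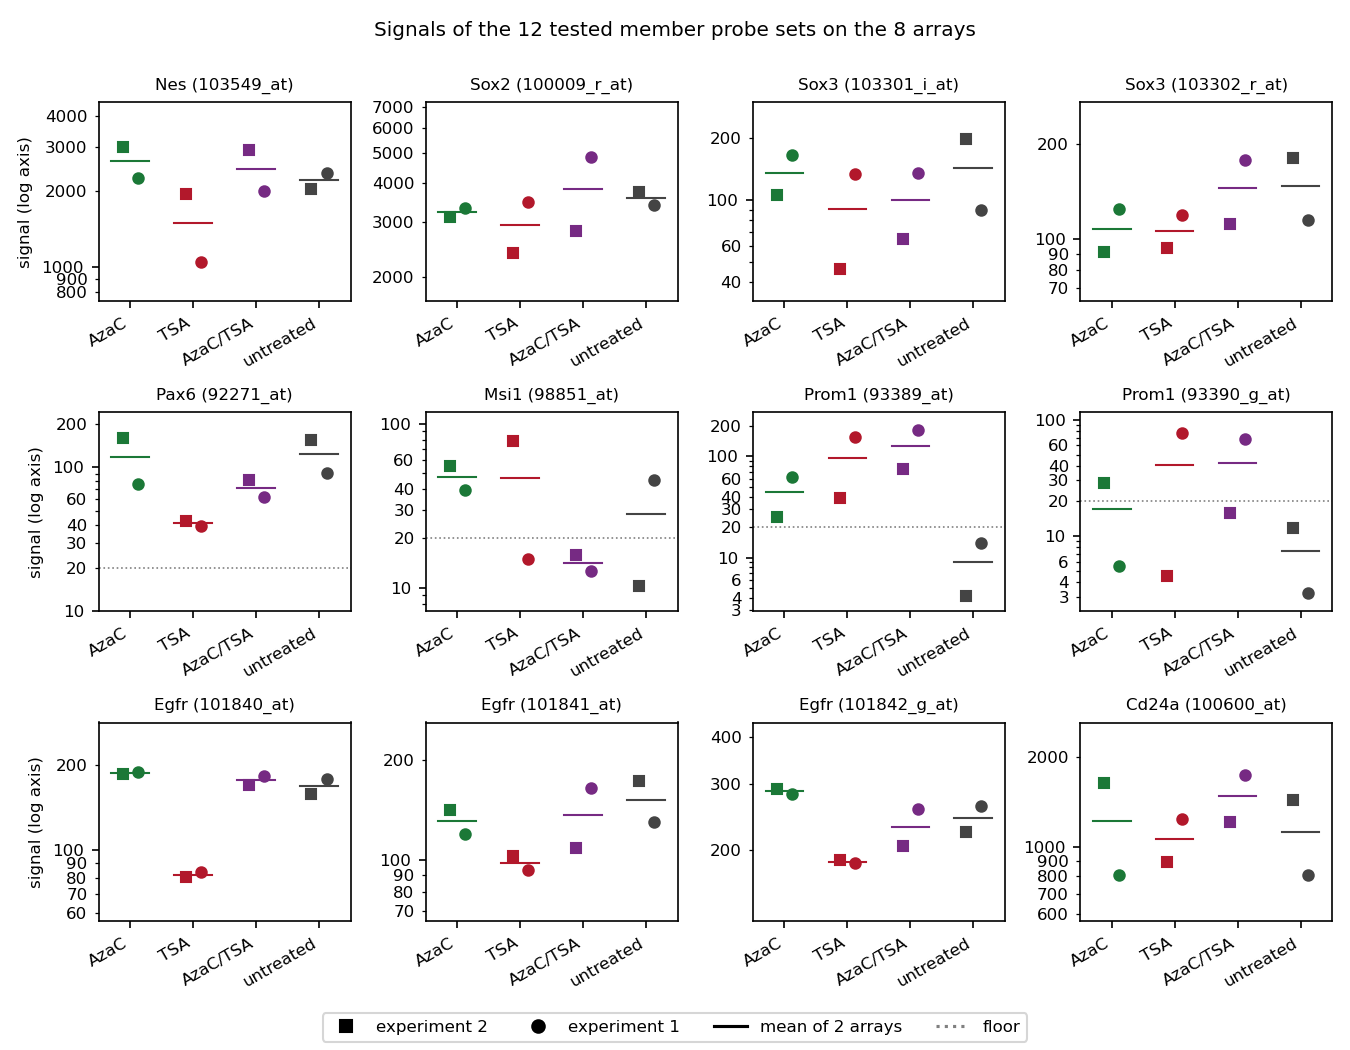
Signal (log axis) of each of the 12 tested probe sets of the 8 genes in the AzaC, TSA, AzaC/TSA and untreated groups. Squares are experiment 2, circles experiment 1, short lines the mean of 2 arrays, and the dotted line the floor at 20. Egfr 101840_at lies at 80.2 and 83.8 in TSA and between 159 and 189 on the other 6 arrays, and Prom1 93389_at is under the floor in untreated cells only.

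The promoters of Egfr, Pax6 and Prom1 are shown because these genes had the largest member differences in TSA against untreated. CpG sites are marked because the enzymes that AzaC blocks methylate DNA there. Each window holds 250 bases before and 50 after a transcription start, from RefSeq on the GRCm38.p6 build, and capitals mark CG, the CpG site. Pax6 and Prom1 each have 2 starts in the table. RefSeq matched 5 of the 8 genes, Nes, Sox2, Pax6, Prom1 and Egfr.
Egfr, chr11:16751953-16752252, plus strand: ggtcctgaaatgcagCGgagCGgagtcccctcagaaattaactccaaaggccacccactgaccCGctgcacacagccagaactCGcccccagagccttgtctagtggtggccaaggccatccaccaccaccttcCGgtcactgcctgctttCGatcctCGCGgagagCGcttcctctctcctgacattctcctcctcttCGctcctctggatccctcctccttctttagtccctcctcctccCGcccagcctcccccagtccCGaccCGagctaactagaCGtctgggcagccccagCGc
Pax6 start 1, chr2:105668646-105668945, plus strand: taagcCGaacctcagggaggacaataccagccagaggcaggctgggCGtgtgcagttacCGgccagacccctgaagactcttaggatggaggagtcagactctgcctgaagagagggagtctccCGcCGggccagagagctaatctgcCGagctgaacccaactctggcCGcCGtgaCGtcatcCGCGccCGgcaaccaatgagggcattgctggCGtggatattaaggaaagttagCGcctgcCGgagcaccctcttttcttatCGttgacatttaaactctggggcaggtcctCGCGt
Pax6 start 2, chr2:105682213-105682512, plus strand: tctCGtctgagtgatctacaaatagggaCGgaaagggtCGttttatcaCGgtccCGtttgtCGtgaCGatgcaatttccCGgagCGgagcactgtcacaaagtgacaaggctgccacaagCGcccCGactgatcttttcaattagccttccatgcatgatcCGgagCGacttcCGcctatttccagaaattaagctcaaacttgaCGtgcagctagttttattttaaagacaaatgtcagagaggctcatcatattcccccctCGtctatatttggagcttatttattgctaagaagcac
Prom1 start 1, chr5:44101687-44101986, minus strand: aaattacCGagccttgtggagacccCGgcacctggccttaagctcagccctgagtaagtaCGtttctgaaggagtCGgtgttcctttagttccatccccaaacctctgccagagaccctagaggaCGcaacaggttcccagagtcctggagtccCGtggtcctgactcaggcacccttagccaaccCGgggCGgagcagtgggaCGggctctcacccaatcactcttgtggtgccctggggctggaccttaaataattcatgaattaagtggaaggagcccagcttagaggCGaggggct
Prom1 start 2, chr5:44094719-44095018, minus strand: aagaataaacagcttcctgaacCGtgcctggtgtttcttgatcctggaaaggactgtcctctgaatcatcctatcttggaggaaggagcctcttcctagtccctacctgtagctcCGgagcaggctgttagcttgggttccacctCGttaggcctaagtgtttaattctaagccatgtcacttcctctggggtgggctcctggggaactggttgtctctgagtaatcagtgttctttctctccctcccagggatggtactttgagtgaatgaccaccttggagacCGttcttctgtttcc

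The Egfr window holds 15 CpG sites, a number reached by 34.6% of the 32851 mouse promoters in the table, whose median is 7. The Pax6 windows hold 18 and 16 sites, reached by 29.7% and 33.0% of promoters. The Prom1 windows hold 10 and 4, reached by 43.5% and 68.6%. The windows of Nes and Sox2 hold 18 and 27 sites, reached by 29.7% and 15.5%. A GC box, GGGCGG or its reverse complement CCGCCC, so that both strands were searched, occurs once or more in 35.7% of promoters. It was found in the Egfr window and in the first Prom1 window (1 each) and in those of Nes and Sox2 (2 each), while neither Pax6 window nor the second Prom1 window holds these letters. CG letters within a GC box are counted among the CpG sites too. Methylation itself was not measured, and the counts describe the windows only.

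Egfr was lowest with TSA in all 3 of its probe sets. The probe set 101840_at gave 186 and 189 with AzaC, 80.2 and 83.8 with TSA, 171 and 183 with AzaC/TSA, and 159 and 179 in untreated cells. Both TSA arrays lay far below all others, and the AzaC/TSA arrays stood among the AzaC and untreated ones. The mean was 82.0 ± 2.55 with TSA and 169 ± 14.2 in untreated cells (SD, n = 2 each). For TSA against untreated the log2 change was -1.04 (SE 0.30), with an adjusted p of 0.086 by limma. With the experiment as a block Egfr 101840_at fell, with the same change, an SE of 0.29 and an adjusted p of 0.0455. For AzaC/TSA against untreated the log2 change was 0.07 (95% interval -0.60 to 0.74).

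The other Egfr probe sets, 101841_at and 101842_g_at, share a source sequence and are not independent of each other. For 101841_at the signals were 141 and 120.1 with AzaC, 103 and 93.3 with TSA, 109 and 165 with AzaC/TSA, and 173 and 130.4 in untreated cells. For 101842_g_at they were 292 and 282 with AzaC, 188 and 185 with TSA, 205 and 257 with AzaC/TSA, and 224 and 263 in untreated cells. In both the TSA arrays were again the lowest of all 8, by a smaller margin. Their log2 changes for TSA against untreated were -0.62 (SE 0.36) and -0.38 (SE 0.28), neither called with group means or with the block. Over the 8 arrays Egfr 101840_at correlated with 101842_g_at with r of 0.84 and with 101841_at with r of 0.67. The pair 101841_at and 101842_g_at had an r of 0.60. Each pair was measured on the same arrays.

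Egfr 101840_at also differed between AzaC/TSA and TSA, with a log2 change of 1.11 (SE 0.30) and an unadjusted p of 0.00477. No probe set of the array was called in that contrast (0%, adjusted p = 1 for Egfr), and 185 had an unadjusted p under 0.05. The AzaC by TSA interaction, which asks whether the difference made by TSA is another with AzaC present, was 0.95 (SE 0.42) for Egfr 101840_at, with an unadjusted p of 0.0496 and an adjusted p of 1.00 by limma. There too 0 of 12 member probe sets and 0% of all probe sets were called, and 142 had an unadjusted p under 0.05. With the block both contrasts still had 0 calls, beside 344 and 258 probe sets at an unadjusted p under 0.05. For 101841_at the interaction was 0.66 (SE 0.50) and for 101842_g_at it was 0.06 (SE 0.39). The other members' interactions ran from -1.61 (Msi1) to 0.91 (Pax6), with standard errors from 0.43 to 1.16.

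Pax6, a transcription factor of dorsal forebrain and eye progenitors, was likewise lowest with TSA. Pax6 gave 159.7 and 76.3 with AzaC, 42.6 and 39.2 with TSA, 81.6 and 62.5 with AzaC/TSA, and 154 and 91.7 in untreated cells. The TSA arrays were the lowest and lay close together, and the AzaC/TSA arrays were also below both untreated arrays but overlapped the AzaC ones. The mean was 40.9 ± 2.4 with TSA and 123 ± 44.1 in untreated cells (SD, n = 2 each). For TSA against untreated the log2 change of Pax6 was -1.54 (SE 0.48) with an adjusted p of 0.111 by limma. With the block Pax6 fell, with an SE of 0.40 and an adjusted p of 0.0347. For AzaC/TSA against untreated it was -0.74 (SE 0.48, adjusted p = 0.48) and for AzaC against untreated -0.11 (95% interval -1.19 to 0.98).

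Pax6 was also among the members with the largest pooled difference. Over the 4 arrays with TSA against the 4 without, its log2 change was -1.08 (SE 0.34), with an adjusted p of 0.0653. With the block Pax6 fell in this comparison as well (SE 0.28, adjusted p = 0.0207). Within experiment 2 the difference of TSA minus untreated was -1.86 and that of AzaC/TSA minus AzaC was -0.97. Within experiment 1 they were -1.23 and -0.29. All 4 differences were negative, as they also were for Nes 103549_at, Egfr 101840_at and Egfr 101842_g_at. The share of all probe sets with this pattern was not counted.

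Prom1 93389_at was the 1 member probe set that stood higher with TSA in both experiments, with AzaC and without it. It gave 25.3 and 63.2 with AzaC, 38.4 and 156 with TSA, 75.1 and 181 with AzaC/TSA, and 4.2 and 13.8 in untreated cells. Both untreated arrays were under the floor and below all 6 treated arrays. Raising them to the floor made the estimated differences from untreated cells smaller. Relative to untreated cells the estimate for Prom1 93389_at was 3.87-fold higher with TSA (log2 1.95, 95% interval 0.21 to 3.69, SE 0.77, adjusted p = 0.196 by limma). With AzaC/TSA it was 5.83-fold higher (log2 2.54, 95% interval 0.80 to 4.28, SE 0.77, adjusted p = 0.123 by limma). With the block Prom1 93389_at was called as higher in both, with adjusted p-values of 0.0465 and 0.0203 by limma. The probe set passed the filter through treated arrays only. The floor gave both untreated arrays the same value, so the spread of the untreated group was removed before the fit. For these reasons the p-values against untreated cells, with the block or without it, cannot be taken as support for a rise. The size depended on single arrays and on the floor: for TSA the log2 change was 0.94 without TSA replicate 1 and 2.96 without TSA replicate 2, and 0.98 with the floor at 20% of the trimmed mean. For AzaC/TSA these were 1.91 without AzaC/TSA replicate 1, 3.18 without AzaC/TSA replicate 2, and 1.54 with that floor. With AzaC alone the log2 change was 1.00 (SE 0.77, adjusted p = 1), which was not called.

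Over the 4 arrays with TSA against the 4 without, the log2 change of Prom1 93389_at was 1.75 (SE 0.54, adjusted p = 0.0635 by limma). With the block it was called, with an adjusted p of 0.00974 by limma, under the same limits of floor and filter. In every group the array of experiment 1 was the higher. The experiment 2 minus experiment 1 log2 difference was -1.15 (SE 0.39) with an adjusted p of 0.129. The second Prom1 probe set, 93390_g_at, is built from the same source sequence and lay mostly under the floor. It gave 28.5 and 5.5 with AzaC, 4.5 and 76.6 with TSA, 15.8 and 67.9 with AzaC/TSA, and 11.7 and 3.2 in untreated cells. Only the experiment 1 arrays with TSA reached 50, and its log2 change over TSA exposure was 0.80 (SE 0.58, adjusted p = 0.407). The Prom1 result therefore rests on 1 probe set at low signal.

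**Figure D2:**
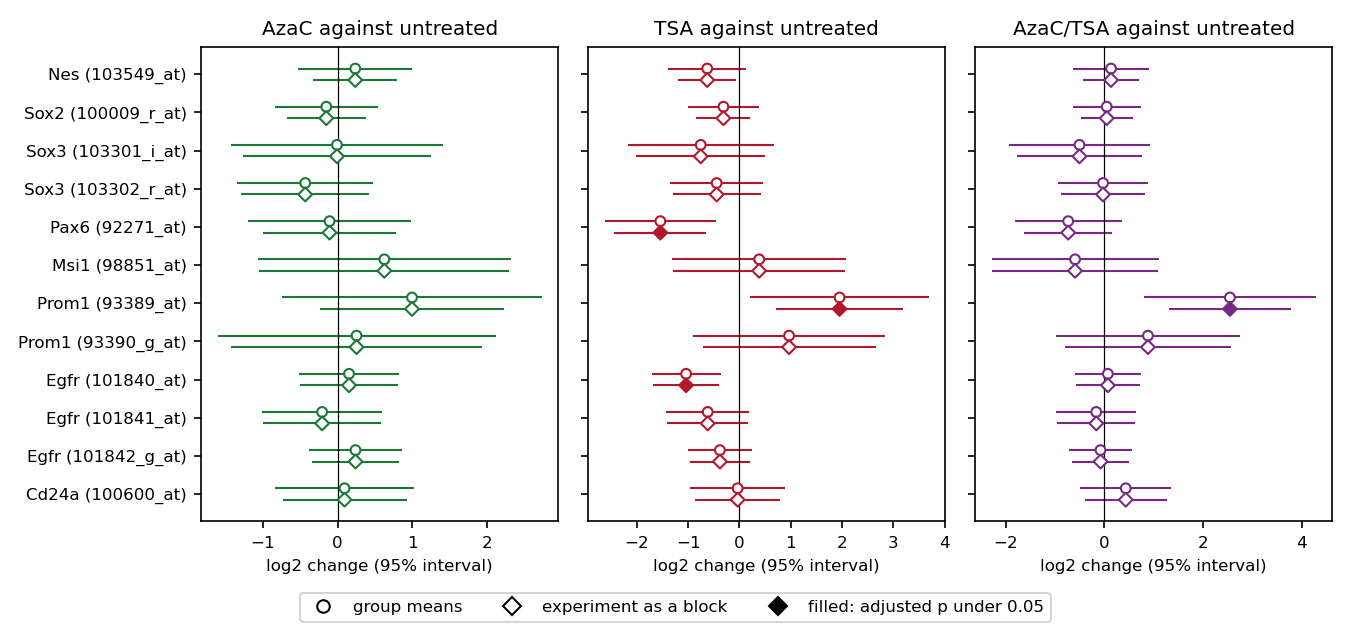
Log2 changes (x axis, with 95% intervals) of the 12 tested probe sets against untreated cells, for AzaC, TSA and AzaC/TSA. Circles are the fit of group means, diamonds the fit with the experiment as a block, and filled symbols have an adjusted p under 0.05. The filled diamonds are Pax6, Prom1 93389_at and Egfr 101840_at under TSA and Prom1 93389_at under AzaC/TSA, and no circle is filled.

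Nes, the intermediate filament gene of progenitors, gave 3003 and 2259 with AzaC, 1949.6 and 1049 with TSA, 2921 and 2008 with AzaC/TSA, and 2053 and 2376 in untreated cells. The TSA arrays were the lowest, but the higher of them lay close to the untreated array of experiment 2. For TSA against untreated the log2 change was -0.63 (SE 0.34, adjusted p = 0.334). Nearly all of it came from experiment 1, where the difference was -1.18, while in experiment 2 it was -0.07. For AzaC/TSA against untreated it was 0.13 (95% interval -0.63 to 0.90), and for AzaC/TSA against TSA it was 0.76 (95% interval -0.01 to 1.53, adjusted p = 1).

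Sox2, a transcription factor that keeps neural cells in the progenitor state, gave 3119.9 and 3324 with AzaC, 2391 and 3474 with TSA, 2819 and 4830.4 with AzaC/TSA, and 3751 and 3407 in untreated cells. The groups overlapped, except that both AzaC arrays lay below both untreated arrays by a small margin. The log2 changes of Sox2 against untreated were -0.15 for AzaC, -0.31 for TSA and 0.05 for AzaC/TSA (SE 0.30 each), and none was called. Their 95% intervals, -0.84 to 0.54, -0.9997 to 0.38 and -0.64 to 0.73, leave room for differences of up to 1 on the log2 scale. The Sox2 probe set carries the ending _r_at, which marks a set chosen under relaxed design rules.

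Sox3, a close relative of Sox2 on the X chromosome, had 2 tested probe sets made from the same source sequence. Sox3 103301_i_at gave 105.5 and 165 with AzaC, 46.3 and 134 with TSA, 64.8 and 135 with AzaC/TSA, and 198 and 89.2 in untreated cells. Sox3 103302_r_at gave 91.0 and 125 with AzaC, 94.0 and 119 with TSA, 112 and 177.5 with AzaC/TSA, and 180.3 and 115 in untreated cells. In both, the untreated arrays lay far apart and every group overlapped the untreated one. The log2 changes of Sox3 against untreated ran from -0.75 to -0.01, with standard errors of 0.63 and 0.40, and none was called. The Sox3 sets correlated with r of 0.70 over the 8 arrays, and the untested 92264_at was under the floor on 6 of the 8 arrays.

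Msi1, which binds and holds back messenger RNAs in progenitors, was close to the floor. It gave 55.0 and 39.7 with AzaC, 78.0 and 14.9 with TSA, 15.9 and 12.6 with AzaC/TSA, and 10.3 and 45.7 in untreated cells. Only 2 arrays reached 50, both of experiment 2, and 4 were under the floor. The log2 changes of Msi1 had standard errors of 0.75 and none was called. Cd24a, a surface glycoprotein of progenitors and young neurons, gave 1634 and 808.2 with AzaC, 894 and 1238 with TSA, 1215 and 1736 with AzaC/TSA, and 1435 and 808.1 in untreated cells. The groups overlapped, and its log2 changes against untreated were 0.09, -0.03 and 0.43 (SE 0.41 each), none called.

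Among the 12 tested probe sets, 5 had both TSA arrays below both untreated arrays: the 3 of Egfr, Nes and Pax6. Of all probe sets 25.6% had that, and 1 member, Prom1 93389_at, had both TSA arrays above, beside 26.1%. The same 5 had both TSA arrays below all 6 other arrays, against 5.01% of all tested probe sets. This pattern was not among the planned contrasts and was counted for TSA in the lower direction only. The count is therefore a description and no test. These 5 come from 3 genes, since the Egfr sets share their target. For AzaC/TSA only Pax6 lay wholly below the untreated arrays, 1 of 12 beside 24.3%, and only Prom1 93389_at wholly above, 1 of 12 beside 23%. For AzaC only Sox2 lay wholly below, 1 of 12 beside 11.8%, and Egfr 101840_at, Egfr 101842_g_at and Prom1 93389_at lay wholly above, 3 of 12 beside 15%. The median log2 change of the 12 was -0.41 for TSA, against 0.01 over all probe sets. For AzaC/TSA it was 0.01 against -0.00, and for AzaC 0.12 against 0.03.

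The arrays were also pooled by agent. For TSA exposure, 4 arrays with it against 4 without, 0 of 12 member probe sets were called beside 14.5% of all, 3 (Egfr 101840_at, Pax6 and Prom1 93389_at) had an unadjusted p under 0.05, and with the block 2 (Pax6 and Prom1 93389_at) were called beside 23.9%. The Prom1 call stands under the limits of floor and filter given above. Egfr 101840_at had a log2 change of -0.56 (SE 0.21), with an adjusted p of 0.109 and, with the block, 0.076. Its AzaC/TSA arrays, at 171 and 183, pulled that value toward 0. For AzaC exposure, 0 of 12 and 0% of all were called, with 203 probe sets and 1 member at an unadjusted p under 0.05. That member was Egfr 101840_at, with a log2 change of 0.63 (SE 0.21, adjusted p = 0.998), and its groups with and without AzaC overlapped. For AzaC/TSA against AzaC, 0 of 12 were called beside 2.79% of all (with the block 0 of 12 beside 9.32%), and the widest member difference was Prom1 93389_at at 1.54 (SE 0.77).

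The experiments did not always give the same sign. Comparing experiment 2 with experiment 1 over all groups, 0 of 12 were called beside 4.22% of all probe sets, and Nes (log2 0.41, SE 0.18, adjusted p = 0.232) and Prom1 93389_at had an unadjusted p under 0.05. For Cd24a in experiment 2, both arrays with TSA (894 and 1215) were below both without it (1634 and 1435). In experiment 1, both arrays with TSA (1238 and 1736) were above both without it (808.2 and 808.1). Sox2 showed the same order, at 2391 and 2819 with TSA against 3119.9 and 3751 without in experiment 2, and at 3474 and 4830.4 with TSA against 3324 and 3407 without in experiment 1. In experiment 1 its TSA minus untreated difference was only 0.03 on the log2 scale. Such opposite separation was seen in 2 of 12 member probe sets and in 4.59% of all. The test of the difference between experiments, added after the values were seen, gave -1.41 (SE 0.24, unadjusted p 0.000347, adjusted p = 0.163) for Cd24a and -0.68 (SE 0.23, adjusted p = 0.412) for Sox2. Prom1 93390_g_at (-2.10, SE 0.74, adjusted p = 0.42) and Sox3 103301_i_at (-1.55, SE 0.65, adjusted p = 0.49) also had an unadjusted p under 0.05. That test called 0 of 12 members beside 0.0751% of all. For Egfr 101840_at the TSA minus untreated difference was nearly equal in the experiments, -0.98 in experiment 2 and -1.09 in experiment 1.

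**Figure D3:**
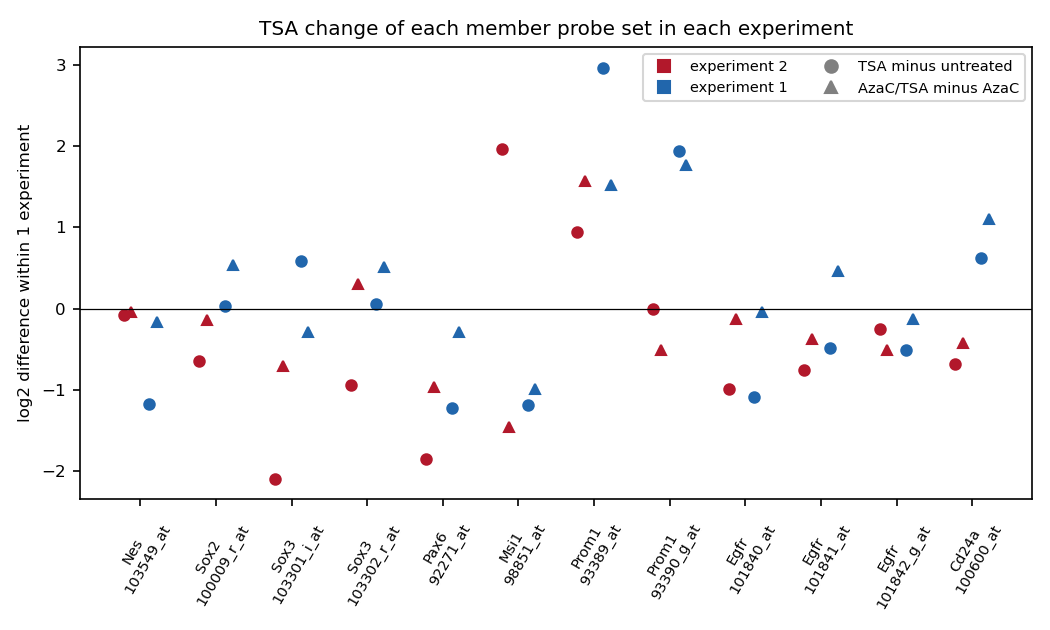
Log2 difference within 1 experiment (y axis) for each tested probe set, red for experiment 2 and blue for experiment 1. Circles are TSA minus untreated and triangles are AzaC/TSA minus AzaC. For Cd24a the red symbols lie below 0 and the blue ones above. All 4 symbols lie below 0 for Pax6, Nes, Egfr 101840_at and Egfr 101842_g_at, and all 4 above for Prom1 93389_at.

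Other genes of neural stem and progenitor cells moved in both directions with TSA. Of 50 such genes 40 were on the array and 34 were tested. Over TSA exposure 4 rose and 7 fell, beside 6.95% and 7.56% of all probe sets. The median log2 change was 0.11 over the 34 against -0.03 over all probe sets. With the block 7 rose and 8 fell, beside 11.7% and 12.2% of all probe sets. The neural adhesion molecule Ncam1 (2.37, SE 0.30), the cyclin Ccnd2 (1.15, SE 0.25), the inhibitor of differentiation Id1 (1.05, SE 0.23) and the integrin Itgb1 (0.64, SE 0.16) rose on the log2 scale. The receptor phosphatase Ptprz1 (-2.14, SE 0.51), the matrix proteoglycan Bcan (-2.06, SE 0.32), the radial glia fatty acid binding protein Fabp7 (-1.89, SE 0.30) and the Notch modifier Lfng (-1.85, SE 0.35) fell. So did the cyclin Ccnd1 (-1.72, SE 0.44), the transcription factor Tead2 (-1.16, SE 0.33) and the Polycomb gene Bmi1 (-0.997, SE 0.19). Their adjusted p-values ran from 0.00167 for Ncam1 to 0.0495 for Tead2.

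In TSA against untreated, Ncam1 rose (2.59) and Fabp7 (-2.63), Bcan (-2.62) and Bmi1 (-1.19) fell. These were 4 of the 34 progenitor genes, beside 5.02% of all probe sets. With the block 2 rose and 8 fell, beside 5.6% and 6.56% of all. In AzaC/TSA against untreated none of the 34 was called with group means, beside 3.12%. With the block 2 rose and 4 fell, beside 4.38% and 4.96%. In AzaC/TSA against AzaC, Ncam1 rose (2.15), 1 of the 34, beside 2.79% called. With the block 4 rose and 5 fell, beside 4.49% and 4.82%. Between the experiments 7 of the 34 were called, beside 4.22% of all probe sets. Hmga2, a chromatin protein of young progenitors, was higher in experiment 2 (log2 1.93). In that experiment 6 were lower: Ednrb (-2.19), Ptn (-1.98), Id3 (-1.09), Cdh2 (-0.91), Bcan (-0.83) and Zic1 (-0.72). Bcan thus was called both with TSA and between experiments.

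Of 7 other Sox genes tested, 0 were called over TSA exposure, beside 14.5% of all probe sets. Sox4, which acts in young neurons, had a log2 change of 1.52 (SE 0.46, adjusted p = 0.0567), and with the block it rose (adjusted p = 0.00314). Sox11, also a gene of young neurons, was at 0.35 (SE 0.28) and Sox13 at 0.24 (SE 0.19), neither called. Of 12 tested genes of the EGF receptor family, its ligands and its feedback, 2 rose over TSA exposure and none fell. Of all probe sets 6.95% rose and 7.56% fell. Errfi1, an inhibitor of the EGF receptor kinase, rose by 1.48 (SE 0.26, adjusted p = 0.00772 by limma) on the log2 scale. In TSA against untreated it rose by 1.75 (SE 0.37), 1 of 12 called beside 5.02% of all probe sets. The call in TSA against untreated was lost without either TSA array or either untreated array. The related receptor Erbb3 rose by 1.97 (SE 0.38, adjusted p = 0.0113). Dusp6, a phosphatase induced by growth factor signals, was at 0.21 (SE 0.32), and the adaptor Gab1 at -0.39 (SE 0.23). The ligand genes Ereg and Btc and the inhibitor Lrig1 were under the floor on all 8 arrays.

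**Figure D4:**
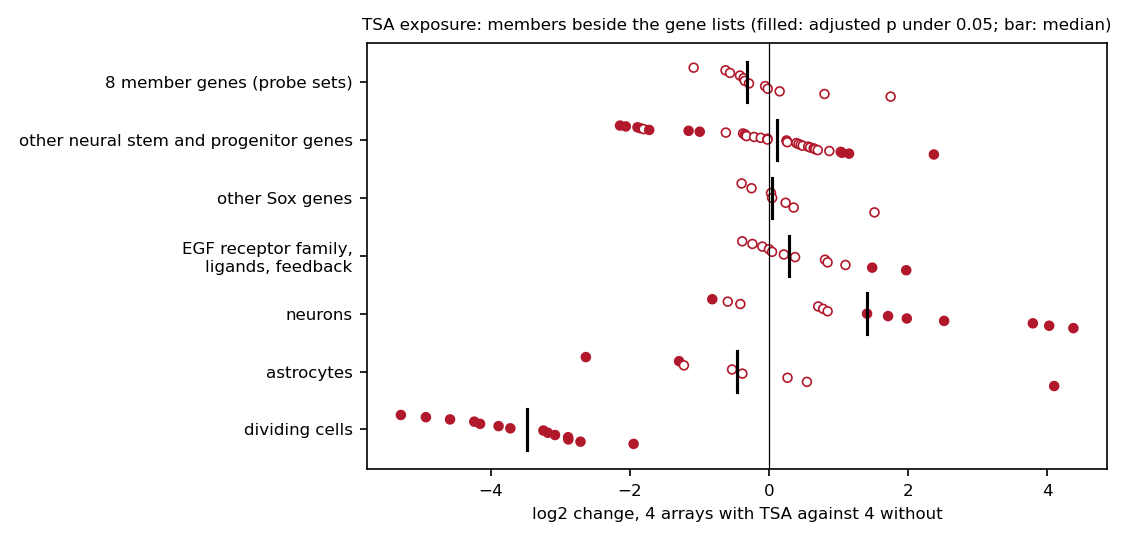
Log2 change over TSA exposure (x axis, 4 arrays with TSA against 4 without) of the tested probe sets of the 8 genes and of the genes of 6 lists. Filled points have an adjusted p under 0.05 and bars mark medians, which were -0.32 for the 12 member probe sets, 1.41 for neurons and -3.48 for dividing cells.

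Markers of other cell types are given because they moved on the same arrays. Of 13 neuronal genes tested, 7 rose over TSA exposure and 1, Tubb3, fell (-0.82), beside 6.95% and 7.56% of all probe sets. Scg2 (4.38), Snap25 (4.03) and Chgb (3.79), genes of secretory granules and synapses, had the largest log2 changes, and the summed signal of the list was 3297 to 5234 with TSA and 2465 to 3135 without. Of 8 astrocyte genes 1 rose, Clu (4.10), and 2 fell, Sparcl1 (-2.63) and S100b (-1.29), beside the same shares of all probe sets. With untreated replicate 2 left out, the astrocyte genes called numbered 1. The summed signals were 4012 to 11810.2 with TSA and 6943 to 9610.1 without. Among 14 dividing-cell genes, Mki67 (-5.29), Top2a (-4.94) and Cdc20 (-4.59) fell most. The part of these markers in the members' differences was not tested.

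The remaining cell types had few tested markers. Over TSA exposure, 0 of 3 oligodendrocyte genes, 0 of 2 ependymal genes and 0 of 4 blood cell genes were called, beside 14.5% of all probe sets. With the block 1 ependymal gene fell, where 12.2% of all probe sets did. The macrophage gene Cd68 rose (2.84), 1 of 3, while Cx3cr1 (-0.53) and Csf1r (-0.90) were not called and the median of the 3 was -0.53. The endothelial gene Flt1 rose (1.18), 1 of 2, and the fibroblast gene Dcn rose (1.41), 1 of 6. Of all probe sets 6.95% rose. Summed signals with TSA and without overlapped for these lists: 173 to 236 and 129.7 to 243 for oligodendrocytes, 397 to 653 and 553 to 662 for ependymal cells, 303 to 315 and 238 to 337 for blood cells. They were 328 to 623 and 224 to 407 for macrophages, 216 to 292 and 169 to 278 for endothelial cells, and 1105 to 1452 and 819.6 to 1461 for fibroblasts. Under the floor on all arrays were 1 of 8 blood cell genes on the array (Ptprc) and 2 of 9 of microglia and macrophages (Aif1 and Itgam). So were 2 of 9 of endothelium and pericytes (Cldn5 and Cdh5), 2 of 7 of oligodendrocytes (Mog and Cnp) and 1 of 10 of fibroblasts (Postn). A probe set under the floor need not mean that the RNA was absent: Nes 161829_at was under it on all 8 arrays, and Nes 103549_at on none.

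For each of the 8 genes the most similar patterns over the 8 arrays were sought among the 6011 named genes tested, by Pearson correlation of log2 signals. Values under the floor had been raised to it, so arrays there are tied. All points share the 8 arrays, and each value is the highest or second highest of all genes searched, so the correlations are a description only. Egfr 101842_g_at was most like Stc2, a secreted glycoprotein (r = 0.99), and Ctnnd2, a catenin of neuronal junctions (0.95). Pax6 was most like the tetraspanin Tspan12 and Cdca4 (0.98 each), and Prom1 most like Cyp4v3 (0.98) and the neuronal gene Nrgn (0.97). Nes was nearest to the guidance factor Sema3a and the protease inhibitor Timp2 (0.97 each), Sox2 to Timp3 (0.95) and Pgap2 (0.94), and Sox3 103302_r_at to Fbp1 (0.98) and Lyrm2 (0.91). Msi1 was nearest to Hoxa6 (0.97) and Golga3 (0.93), and Cd24a to Tnpo3 (0.94) and the desaturase gene Scd2 (0.93). Stc2 gave 94.1 and 66.7 with AzaC, 15.4 and 11.4 with TSA, 28.3 and 67.3 with AzaC/TSA, and 35.4 and 65.3 in untreated cells. Tspan12 gave 486 and 240.3 with AzaC, 72.7 and 78.4 with TSA, 177 and 128 with AzaC/TSA, and 528 and 225 in untreated cells. Both have their lowest values on the TSA arrays, as Egfr and Pax6 do, and for Stc2 these are under the floor. Since both were picked for likeness on these same arrays, the shared low is no separate result.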

How the data were processed

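Total RNA of 8 neurosphere cultures was measured on short-oligonucleotide arrays with Affymetrix-type probe set names. The authors deposited 1 intensity per probe set and array, and the deposited values show that each array had been scaled to a 2%-trimmed mean of 200.1. Which software read the arrays, and with what settings, is not stated in the labels. Groups and experiments came from the sample titles. The 66 control probe sets were left out of the tests. Of the 12488 probe sets, 10855 had a single gene symbol, 396 several and 1237 none, and 10839 matched the RefSeq gene table.

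Values under 10% of the trimmed mean (20) were raised to it, and probe sets with at least 2 arrays at 25% of it (50) were tested. The model (limma 3.58.1, R 4.3.3) took 1 mean for each of the 4 groups from the log2 signals of all arrays, with lmFit and a trended eBayes. Tests were two-sided, and Benjamini-Hochberg adjustment covered 7987 probe sets. Precision is limited by the number of arrays. The median SE of a change between groups was 0.409, a 95% half-width of 0.925, and with the block 0.351 and 0.786. The fit had 4 residual degrees of freedom with a prior of 4.93, and with the block 3 and 6.71. The titles number the experiments, and arrays of the same experiment deviated together: taken from the mean of each group, deviations of any 2 groups had an r between 0.203 and 0.411 (6 pairs). The experiment was therefore also used as a block.

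The 8 genes, 12 gene lists (197 genes) and tests were chosen with earlier results of these data known. Named genes were every probe set of the 8 genes, list members past the threshold, up to 3 of the brightest members of each list, and the 2 most similar genes for each of the 8. Where a list needed 1 probe set per gene, the brightest over all arrays was used. Alternatives changed the scaling, floor, filter, trend, the groups fitted, the block and the arrays included.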

Additional observations from a re-analysis of the deposited data

Results flagged for a closer look

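Within each set of 4 arrays that share TSA, AzaC or an experiment, or lack TSA or AzaC, the gap between a lone array and its nearest neighbour was divided by the range of the 4 log2 signals. Of 72 such sets, 6 had a gap above the critical value of 0.829. That value is passed in about 1 in 20 sets of independent values of 1 kind. The sets here overlap and mix treatments or experiments, so that rate does not hold for them and the count is no test. For Sox2 the AzaC/TSA array of experiment 1 (4830.4) stood above the other 3 of that experiment, with a ratio of 0.882. For Egfr 101840_at the TSA array of experiment 1 (83.8) stood below the other 3, with a ratio of 0.934. The TSA array of experiment 2 was as low, at 80.2. The other 4 had a ratio of 1 because the 3 remaining arrays lay at the floor. They were Prom1 93390_g_at in the AzaC array of experiment 2, both among arrays without TSA and among those of experiment 2, Prom1 93390_g_at in the TSA array of experiment 1 among arrays without AzaC, and Msi1 in the TSA array of experiment 2 among arrays with TSA.

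Cd24a and Sox2 moved in opposite directions with TSA in the 2 experiments, with no overlap of the arrays within either. The difference between the experiments was -1.41 on the log2 scale for Cd24a and -0.68 for Sox2, experiment 2 minus experiment 1, and neither passed the threshold. The cause was not tested.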

How the results depend on the processing

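With the experiment as a replicate block the count of member probe sets called was 3 for TSA, 1 for AzaC/TSA and 2 for TSA exposure, and the block changed no other call among the members. Each of these counts includes Prom1 93389_at, under the limits of floor and filter given above. For TSA exposure 1 was called with a floor at 2.5% of the trimmed mean (Prom1 93389_at), with an offset in place of the floor (Prom1 93389_at) and without the filter (Egfr 101840_at, adjusted p = 0.0422). Leaving out 1 array gave 0 to 1: without AzaC replicate 1 it was Pax6 (adjusted p = 0.0453) and without TSA replicate 2 it was Prom1 93389_at (adjusted p = 0.0363). In the other contrasts 0 were called under every alternative run, and no direction of the followed changes of Egfr, Pax6, Prom1, Cd24a and Sox2 turned. Adjusted p-values over the alternatives ran from 0.0347 to 0.434 for Pax6 with TSA, from 0.0465 to 0.626 for Prom1 93389_at and from 0.0455 to 0.281 for Egfr 101840_at. The cause of these changes was not tested. The experiment contrast is itself the block and could not be fitted without it.

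Counts over all probe sets moved more. For TSA against untreated 401 became 135 without the filter, 216 without the intensity trend, 176 from the compared groups alone, 971 with the block and 56 to 367 with an array left out. For AzaC/TSA against untreated 249 became 63, 152, 49, 746 and 14 to 223, and for AzaC/TSA against AzaC 223 became 113, 135, 45, 744 and 48 to 158, in the same order. For TSA exposure 1159 became 672 without the filter, 1908 with the block and 575 to 804 with an array left out. Experiment 2 against experiment 1 gave 337, which became 0 without the filter, 74 without the trend and 68 to 256 with an array left out. TSA exposure by experiment gave 6, which became 0 without the filter, without the trend or with any array left out. Without the filter, AzaC gave 13, AzaC/TSA against TSA 11, the interaction 11 and AzaC exposure 17. The interaction gave 1 without the trend, and AzaC exposure gave 2 without untreated replicate 1. Of the 34 other progenitor genes, 11 were called over TSA exposure, 5 to 9 with an array left out and 3 to 15 otherwise. For TSA against untreated the 4 became 0 to 5 and 0 to 10 (10 with the block), and between experiments the 7 became 1 to 8 and 0 to 7. Of the EGF receptor family the call in TSA against untreated was lost in 7 of 20 alternatives, among them no filter, no intensity trend and the compared groups alone. The 3 astrocyte calls over TSA exposure became 1 to 2 with an array left out. The calls of Flt1 and Dcn, 1 each, were lost with any array left out. A group left with 1 array was assumed to vary like the others.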
